A study of Mus musculus with 50 samples.

Results

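The comparison set 3 libraries of SGK1 knockout RAW264.7 cells (libraries D, E and F) against 3 libraries of control cells (A, B and C), all at rest, out of 50 libraries in the series. RAW264.7 is a mouse macrophage line. The control cells carried an empty vector sgRNA and are labelled WT. The SGK1 KO cells had been edited by CRISPR against SGK1. All 6 libraries were untreated and were made from poly-A selected RNA. They belonged to the set whose library names end in a single letter, called batch b2 here. The sample titles do not name it as a batch. The members were taken by the genotype and treatment in the titles and by these letters. A further 8 libraries of the same batch and genotypes, 4 SGK1 KO (O to R) and 4 control (K to N), had been stimulated for 2 h with DMXAA, which activates the mouse STING protein, at 10 µg/mL, and served as a second set in which no library was shared with the comparison at rest. Untreated libraries of SGK1/3 double knockout cells (G, H and I) of the same batch are set beside these at the end. The labels name 1 line for each genotype and do not say whether it was a clone. They do not say that the libraries came from separate cultures, so the p-values cover a spread between libraries that may be technical. That spread was estimated for each gene from all 46 libraries fitted, and not from these 6 alone.

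SGK1 is a serine/threonine kinase of the AGC family, close to AKT, that is activated downstream of PI3K through mTORC2 and PDK1. Its transcription is induced by glucocorticoids, osmotic stress and growth factors, and it is best known for its action on ion channels and transporters and on FOXO transcription factors. STING is the adaptor that carries the signal of cytosolic DNA, through the cyclic dinucleotide made by cGAS, to the kinase TBK1 and the factor IRF3, which switch on interferon beta. Interferon then acts through its receptor and the factor complex ISGF3 on a large set of interferon-stimulated genes. Macrophages keep many of these genes at a low level without any stimulus.

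At rest, 42 of 52 interferon-stimulated genes were lower in the SGK1 KO cells, and a set of genes was silent in one line and expressed in the other. Most of these remained called after removal of a trend with transcript length that separated libraries E and F from the rest. Lower levels of ribosomal protein and respiratory chain genes, called in large number without the correction, were called less often after it, and none of them in every further fit tried.

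The letters GAAA, any 2 bases and GAAA again, the core of the interferon-stimulated response element to which ISGF3 and IRF factors bind, were searched on both strands in promoter windows from RefSeq (GRCm38.p6, 250 bases before to 50 after a gene start), a build that differs from that of the deposited data. Tested genes matched to a window by symbol numbered 11029, and 440 of these (3.99%) held the letters in at least 1 window, against 3.44% of all 32851 windows in the table. Among all genes called both with and without removal of the length trend, 74 of 971 lower genes with a window (7.62%) and 13 of 500 higher genes (2.6%) had the letters. In a stricter set, called also in 3 further fits described below, it was 29 of 108 lower genes (26.9%) and 2 of 64 higher genes (3.12%). Of the lower genes of this stricter set outside the list of interferon-stimulated genes, 15 of 83 (18.1%) had them. In the list of interferon-stimulated genes the share was 22 of 39 (56.4%). The forkhead letters TGTTTAC, searched because FOXO factors are substrates of SGK kinases, occurred in 4 of the 108 lower genes (3.7%), in none of the 64 higher genes and in 3.09% of tested genes. These are matches of letters and not measured binding, and the first set of letters was chosen with the result on interferon-stimulated genes known. The windows of the 6 genes with the largest falls among the 29 follow, because they show how the element sits in genes that moved together. They are written 5′ to 3′ on the strand of the gene, with each match on either strand in capitals (on the other strand it reads TTTC, 2 bases and TTTC).
Apol9a (chr15:77411031-77411330, minus strand): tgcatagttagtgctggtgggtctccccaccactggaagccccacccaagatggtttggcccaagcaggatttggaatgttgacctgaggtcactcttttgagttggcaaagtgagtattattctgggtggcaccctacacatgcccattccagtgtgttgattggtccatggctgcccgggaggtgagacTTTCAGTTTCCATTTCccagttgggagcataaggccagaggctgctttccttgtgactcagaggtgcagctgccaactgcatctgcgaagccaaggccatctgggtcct
Cytip (chr2:58160073-58160372, minus strand): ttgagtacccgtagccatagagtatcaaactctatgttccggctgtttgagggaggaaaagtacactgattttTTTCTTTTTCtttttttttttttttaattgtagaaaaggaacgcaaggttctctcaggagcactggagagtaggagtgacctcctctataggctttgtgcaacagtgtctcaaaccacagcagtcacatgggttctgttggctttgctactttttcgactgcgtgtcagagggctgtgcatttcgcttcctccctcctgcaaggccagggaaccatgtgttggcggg
Ddx60 (chr8:61927837-61928136, plus strand): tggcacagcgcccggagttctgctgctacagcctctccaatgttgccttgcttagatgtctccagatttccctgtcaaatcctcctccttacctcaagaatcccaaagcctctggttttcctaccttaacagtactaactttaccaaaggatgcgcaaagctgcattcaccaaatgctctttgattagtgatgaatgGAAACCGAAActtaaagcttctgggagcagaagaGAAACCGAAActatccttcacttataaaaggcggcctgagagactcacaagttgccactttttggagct
Rsad2 (chr12:26456403-26456702, minus strand): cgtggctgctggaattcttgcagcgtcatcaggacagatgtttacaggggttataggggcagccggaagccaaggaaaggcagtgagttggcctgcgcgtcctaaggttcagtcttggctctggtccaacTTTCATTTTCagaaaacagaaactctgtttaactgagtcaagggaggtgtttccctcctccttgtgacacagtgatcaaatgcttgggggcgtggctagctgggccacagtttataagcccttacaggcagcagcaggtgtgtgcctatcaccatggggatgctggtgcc
Isg15 (chr4:156200769-156201068, minus strand): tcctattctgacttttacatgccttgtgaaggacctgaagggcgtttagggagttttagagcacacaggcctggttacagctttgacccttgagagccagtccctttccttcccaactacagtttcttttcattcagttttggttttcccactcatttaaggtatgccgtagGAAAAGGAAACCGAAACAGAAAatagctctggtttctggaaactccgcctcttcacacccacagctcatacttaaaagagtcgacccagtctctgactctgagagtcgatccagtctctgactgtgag
Ifit1 (chr19:34640639-34640938, plus strand): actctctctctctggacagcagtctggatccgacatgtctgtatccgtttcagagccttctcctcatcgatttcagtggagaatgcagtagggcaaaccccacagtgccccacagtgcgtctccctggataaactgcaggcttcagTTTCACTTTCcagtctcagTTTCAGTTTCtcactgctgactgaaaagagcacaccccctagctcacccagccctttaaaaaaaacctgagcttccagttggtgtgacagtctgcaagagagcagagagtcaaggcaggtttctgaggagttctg
Isg15, an interferon-induced ubiquitin-like protein, held 3 overlapping matches, the first starting 78 bases before the gene start. Ifit1, an inhibitor of viral RNA translation, and Ddx60, a helicase of antiviral signalling, held 2 each. Apol9a, an interferon-induced apolipoprotein L, held 2 that overlap, starting 59 bases before the gene start, and Rsad2, the antiviral enzyme viperin, held 1. The match of Cytip, a cytohesin-binding adaptor of leukocytes, lay in a run of T. Of these 6 genes, Ddx60 and Ifit1 were not called when the 6 libraries were fitted alone.

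Library totals ranged from 68567677 to 83935809 counts. Libraries A to F had slopes of -0.11, -0.23, 0.01, 0.01, 0.25 and 0.39 log2 CPM (counts scaled for depth) per doubling of transcript length. Knockout library D thus lay with control library C, and E and F lay apart from all 3 controls. In the shortest of 5 equal classes of genes the median was 0.44 below the batch mean in F (a median deviation of -0.44) and 0.35 above it in B. In the longest class it was 0.30 above the batch mean in F and deviated by -0.30 in B. Library F also had the fewest genes with a count, 15045 against 16413 to 17563 in the others. Over genes, pairs of the 6 libraries had Spearman coefficients of 0.947 (B and F) to 0.977 (A and B), and no pair was identical. Pairs within a group ran from 0.959 (D and F) to 0.977. Knockout library D correlated with controls A and C at 0.97 and 0.969, and with E and F at 0.968 and 0.959. Of 12 macrophage markers 11 were detected, with summed levels of 11600 to 13100 CPM in the control and 8540 to 10500 CPM in the SGK1 KO libraries; Mertk was at 0 in all 6. Of 31 markers of other cell types, 19 were at 0 in all 6 libraries and 30 stayed under 1 CPM. Their sum was 2.68 to 4.75 CPM in the control and 4.56 to 23.7 CPM in the SGK1 KO libraries, of which Alb, the gene of serum albumin, made up to 23.5 CPM. What part, if any, this had in the results was not tested.

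**Figure D1:**
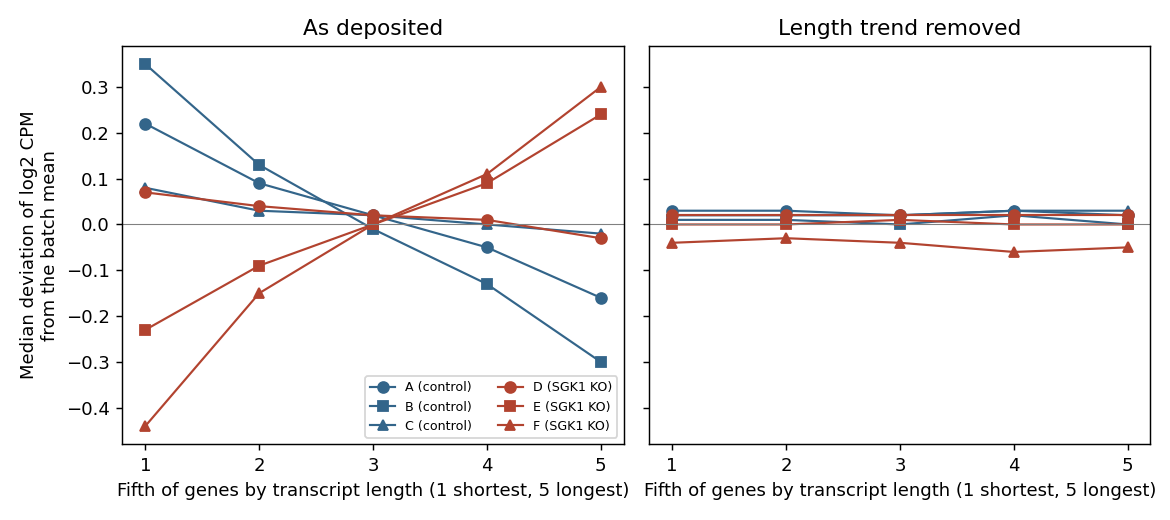
Median deviation of log2 CPM from the batch mean (y axis) in 5 classes of genes by transcript length (x axis, shortest to longest) for each library, as deposited (left) and after the length trend was removed (right). On the left, SGK1 KO libraries E and F rise from -0.23 and -0.44 to 0.24 and 0.30, and controls A and B fall from 0.22 and 0.35 to -0.16 and -0.30; on the right all medians lie between -0.06 and 0.03.

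With no correction, 4732 of 18315 tested genes differed between the lines (edgeR quasi-likelihood test, adjusted p under 0.05), 2077 higher (11.3%) and 2655 lower (14.5%) in the SGK1 KO cells. The higher genes were long, with a median of 5475 bases, and the lower genes short, with a median of 1872, against 2598 over all tested genes. When the trend of each library with length was removed, 2779 genes differed. In that fit the order of lengths was reversed, with medians of 2749.5 bases for the higher and 3492 for the lower genes. Genes called in both fits in the same direction numbered 1923, or 40.6% of the 4732. Of these 692 were higher (3.78% of tested genes) and 1231 lower (6.72%), and their median lengths of 3976 and 2908 bases were closer to each other. A further 23 genes were called in both fits in opposite directions. Below, "rose" and "fell" are used of genes called in both fits, and fold changes are log2 ± SE of the length-removed fit, SGK1 KO minus control.

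The number called in both fits depended on the libraries and terms of the fit. It was larger without library D, at 2515, and smaller in several other fits. It was 580 when only the 20 libraries of b2 were fitted, 217 with the 6 libraries alone, 545 with the slope of each library as a covariate and 294 without libraries E and F, which leaves library D as the single knockout library. For this reason a stricter set was formed after seeing these counts. It holds the 231 genes called in the same direction also with the slope as a covariate, in both fits of b2 alone and in both fits without E and F, 93 of them higher (0.508% of tested genes) and 138 lower (0.753%). They are described as "held". The fit of the 6 libraries alone is not part of this rule, and 164 of the 231 were called there, 65 higher and 99 lower. Of the 231 genes, 159 differed at least 2-fold, 223 were protein coding, and the 3 knockout libraries lay on one side of the 3 controls in 230. That separation was seen in 25.1% of all tested genes. Median lengths of the held genes were 4001 bases for the higher and 3378 for the lower genes.

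Sgk1 itself (ENSMUSG00000019970.16, chr10:21758083-21875802 on GRCm39) was low at rest. The control libraries A, B and C had 3.07, 2.36 and 1.06 CPM, and the SGK1 KO libraries D, E and F had 0.253, 0.15 and 1.6 CPM. Libraries D and E lay below all controls, whereas F lay within their range, and the groups therefore overlapped. The fold change was -1.63 ± 0.48 (adjusted p = 0.0185 by edgeR), and Sgk1 did not hold: its adjusted p was 0.364 with the slope covariate and 0.196 in b2 alone. Without library F the change was -3.38 (adjusted p = 2.21e-05). A CRISPR edit need not lower the RNA of its target, so this level does not measure the loss of the protein. With DMXAA, where Sgk1 was higher, the lines separated: control libraries K to N had 25.4, 39.4, 37.3 and 38.4 CPM, and SGK1 KO libraries O to R had 6.79, 1.82, 5.62 and 2.79 CPM (-3.03 ± 0.36, adjusted p = 4.98e-08 by edgeR). The related kinase Sgk3 stood at 116 to 134 CPM in all 6 libraries at rest (-0.09 ± 0.06, adjusted p = 0.336 by edgeR), and Sgk2 had no count in any of them.

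Of 52 interferon-stimulated genes, all tested, 42 fell and none rose (80.8% called in both fits, against 10.5% of all tested genes). This list, like the others, was written with earlier results of these data known. Of the 42, 34 held. The median of the list was -1.68 against 0 over all tested genes, and removing the length trend moved it little from -1.59. In 45 of the 52 the 3 SGK1 KO libraries lay below the 3 controls. Of all 18315 tested genes, 2540 had the knockout libraries below the controls, and 25.1% had no overlap in one direction or the other. Between 41 and 42 of the genes fell when any single library was left out, and 35 fell without libraries E and F together. Members of the Ifit, Oas, Ifi200 and Slfn families are close in sequence, and reads may be shared between them.

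Ifi44l, an interferon-induced gene beside Ifi44 on chromosome 3 that was not in the list, went from 53.9, 62.5 and 56.4 CPM in the control libraries to 2.09, 1.69 and 2.07 CPM in the SGK1 KO libraries (-4.48 ± 0.33, adjusted p = 1.37e-12 by edgeR). Every knockout library was far below every control. Ifi44 (ENSMUSG00000028037.14, chr3:151436559-151455597), which codes for a related antiviral protein, had 230.0, 223 and 231 CPM in the controls and 25.5, 27.3 and 32.0 CPM in the knockout libraries (-3.13 ± 0.21, adjusted p = 1.88e-13 by edgeR). Library D, which had no slope with length, was as low as E and F.

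Among antiviral effectors, Rsad2 had 2.81, 3.29 and 4.05 CPM in the controls and 0.491, 0.313 and 0.513 CPM in the knockout libraries (-3.08 ± 0.41). Its neighbour Cmpk2, a nucleotide kinase, had 23, 23.6 and 24 CPM against 2.27, 2.05 and 2.98 CPM (-3.27 ± 0.29). Isg15 had 7.27, 9.58 and 5.17 CPM against 0.491, 0.739 and 0.37 CPM (-3.00 ± 0.50). In each of these genes the knockout libraries lay below all controls. The enzymes that make 2-5A, which activates RNase L, fell less steeply: Oas3 from 168, 146 and 166 CPM to 44.0, 54.1 and 47.3 CPM (-1.91 ± 0.18) and Oas1a from 119, 128 and 123 CPM to 45.2, 44.4 and 43.4 CPM (-1.23 ± 0.12). Eif2ak2, the kinase PKR that senses double-stranded RNA, fell by 0.67 on the log2 scale. Rtp4, an interferon-induced chaperone of receptors, had 54.2, 62.7 and 42.4 CPM against 6.39, 4.17 and 4.57 CPM (-3.15 ± 0.21). Isg20, an exonuclease, fell (-3.20 ± 0.83, adjusted p = 0.00698 by edgeR) but did not hold, with no count in libraries E and F.

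Some members of the list regulate the pathway. Irf7, the factor that amplifies interferon production, had 83.2, 83.0 and 86.1 CPM in the controls and 14.8, 10.1 and 17.8 CPM in the knockout libraries (-2.55 ± 0.25). Usp18, which removes ISG15 and restrains the receptor, had 62.7, 61.6 and 54.6 CPM against 8.21, 7.36 and 7.81 CPM (-2.66 ± 0.27). Stat2 and Irf9, which are parts of ISGF3, fell by 0.90 and 1.05 on the log2 scale, and both held. The RNA sensors Ddx58 (RIG-I) and Ifih1 (MDA5) fell by 1.70 and 1.84. The 10 genes of the list that did not pass both fits included Trim25, Ifit2, Ifi27 and Slfn9. Ifi27 had 57.8, 62.6 and 51.9 CPM in the controls against 50.4, 46.3 and 43.1 CPM, and its change was 0.31 ± 0.10 once the length trend was removed (adjusted p = 0.0327 by edgeR).

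**Figure D2:**
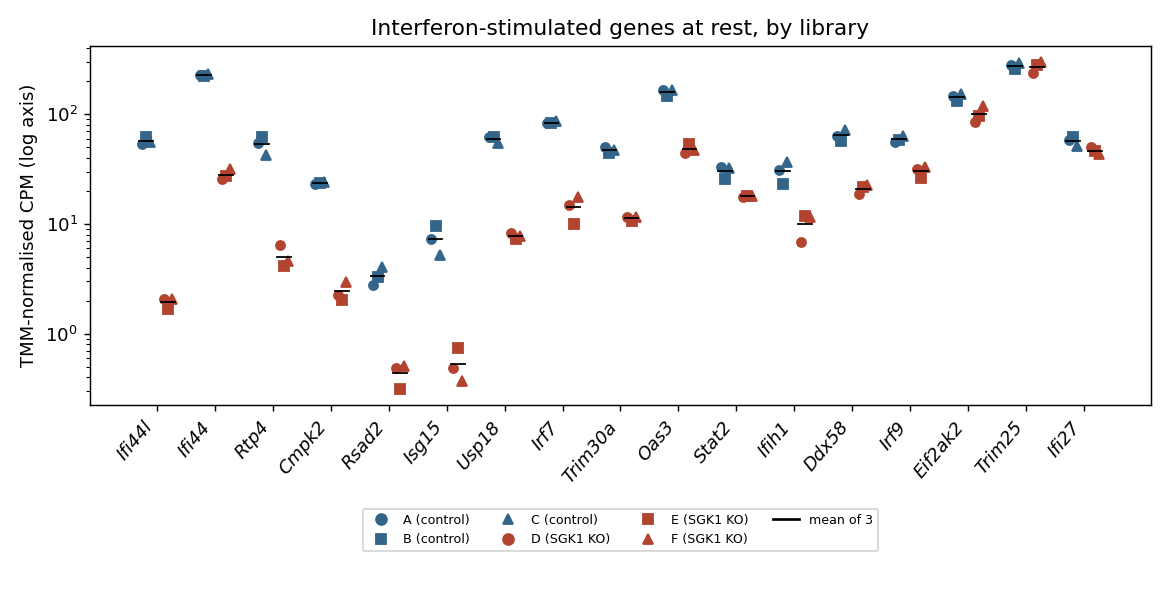
TMM-normalised CPM (y axis, log scale) of interferon-stimulated genes (x axis) in each control (blue) and SGK1 KO (red) library at rest, with bars at the mean of 3 libraries. From Ifi44l to Eif2ak2 the knockout libraries lie below all controls, as in Irf7 (10.1 to 17.8 against 83.0 to 86.1 CPM); in Trim25 they overlap the controls.

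Genes that act upstream were counted in 2 lists. In both fits 7.69% of the receptor signalling genes and 21.7% of the STING pathway genes were called, against 10.5% of all tested genes. Of 13 genes of interferon receptor signalling 1 fell and none rose, with a median of -0.01. The receptor chains Ifnar1 (0.03 ± 0.08) and Ifnar2 (-0.06 ± 0.07) and the kinases Jak1 (0.09 ± 0.06) and Tyk2 (-0.01 ± 0.08) were not called. The gene that fell was Socs1, an inhibitor of the receptor kinases, from 1.67, 1.52 and 0.441 CPM to 0.351, 0 and 0 CPM (adjusted p = 0.0382 by edgeR). Of 23 STING pathway genes 5 fell and none rose, with a median of -0.13. The adaptor Sting1 stood at 19 to 23.5 CPM in the control and 18.2 to 23.1 CPM in the knockout libraries (0.10 ± 0.10), and Tbk1 (0.12 ± 0.08) and Irf3 (-0.19 ± 0.10) were not called. Those that fell were Irf7 and Ifi204, a DNA sensor of the p200 family (-0.99 ± 0.20), which are also interferon-stimulated and held, and Trex1, Rnaseh2c and Rnaseh2a, a DNA exonuclease and parts of the RNase that cleaves RNA paired with DNA, which did not hold. Trex1 had 17.0, 23.4 and 19.9 CPM in the controls and 9.36, 3.81 and 0.274 CPM in libraries D, E and F, an order that followed their slopes with length.

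Of 22 genes of antigen presentation 13 fell and 1 rose (63.6% called in both fits, against 10.5% of all tested genes). The median was -0.46 against 0 over all genes, and 4 of the 13 held. H2-T23, a class Ib molecule that presents to inhibitory NK receptors, had 75.5, 87.2 and 68.0 CPM in the controls and 25.1, 18.4 and 15.5 CPM in the knockout libraries (-1.87 ± 0.18). Tap1, a subunit of the peptide transporter, had 46.2, 52.0 and 52.3 CPM against 30.1, 28.7 and 27.1 CPM (-0.90 ± 0.11). H2-T22 (-0.81 ± 0.16) and the chaperone Tapbp (-0.48 ± 0.08) also held. B2m, the shared light chain of class I molecules, fell by 0.46 on the log2 scale but did not hold. The gene that rose, Cd80, a costimulatory ligand, stayed under 1 CPM. H2 genes are near-identical in parts, so reads may be shared among them. As in the preceding list, several of these genes are also induced by interferon.

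Of 28 NF-kB and inflammatory cytokine genes 9 fell and 1 rose (35.7% called in both fits, against 10.5% of all tested genes), and 5 of them held. The median of -0.38 became -0.27 when genes with no count in a group were set at their bounds. Il1rn, the interleukin-1 receptor antagonist, had 6.26, 5.23 and 6.27 CPM in the controls and 1.29, 0.163 and 0.978 CPM in the knockout libraries (-2.77 ± 0.35). Cxcl10, a chemokine that interferon also induces, had 8.49, 8.69 and 7.94 CPM against 2.09, 2.98 and 1.49 CPM (-1.77 ± 0.29). The gene that rose was Tnfaip2 (0.51 ± 0.10). Of 25 immediate early genes 6 fell and 1 rose (28% called in both fits), and 2 of these held. Dusp4, a phosphatase of ERK, fell from 45.9, 40.7 and 54.6 CPM to 9.04, 11.3 and 11.6 CPM (-2.06 ± 0.16). Klf6, a zinc finger factor, rose from 40.0, 41.8 and 44.9 CPM to 66.6, 70.7 and 69.6 CPM (0.57 ± 0.08).

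Of the lists nearest to the known actions of SGK1, those of the SGK kinases and their activators and of FOXO targets had 20% and 23.8% of their genes called in both fits and ion and osmolyte transport 7.69%, against 10.5% of all tested genes. Of 30 genes of SGK kinases and their PI3K and mTORC2 activators 14 were called higher with no correction, but 4 rose and 2 fell in both fits, none held, and the median went from 0.24 to 0.01. These genes are long, with a median of 4929 bases. The 2 that fell were Sgk1 and Mlst8, a shared subunit of the mTOR complexes (-0.33 ± 0.09). The 4 that rose were Mapkap1, the mTORC2 subunit SIN1 (0.35 ± 0.09), the PI3K subunits Pik3r1 (0.27 ± 0.08) and Pik3cg (0.24 ± 0.06) and the lipid phosphatase Inpp5d (0.21 ± 0.06). Of 26 ion and osmolyte transport genes 12 were called higher with no correction and none rose in both fits, while 2 fell. One of these was Kcna3, a voltage-gated potassium channel of leukocytes, with 1.14, 1.17 and 1.67 CPM in the controls and no count in the knockout libraries, which held. Of 21 FOXO target genes 2 rose and 3 fell, none held, and the median was 0.03. S1pr1, a lipid receptor, had 1.11, 0.662 and 1.61 CPM in the controls and 2.53, 2.16 and 3.72 CPM in the knockout libraries (1.34 ± 0.40), and Klf2 fell (-0.75 ± 0.23).

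The lists of short genes had many calls without the correction. Of 94 ribosomal protein genes, with a median length of 1114.5 bases, 81 were called lower with no correction, 32 fell in both fits and none held. Their median went from -0.67 to -0.15, and the share of counts they took was 4.72%, 5.6% and 3.97% in A, B and C and 4.14%, 3% and 2.4% in D, E and F. Library D lay between the controls A and C. Of 82 respiratory chain genes, with a median length of 997.5 bases, 66 were called lower with no correction, 23 fell in both fits and none held, and the median went from -0.73 to -0.18. The share of the lower calls that stayed in both fits was thus 39.5% and 34.8% in these lists, against 46.4% over all genes. With DMXAA the medians of these lists were 0.02 and -0.03. Of 23 macrophage identity genes 7 fell and 1 rose, none held, and the median was -0.06. The share called in both fits was 34% for ribosomal protein, 28% for respiratory chain and 34.8% for macrophage identity genes, against 10.5% of all tested genes. For the 13 genes encoded in mitochondria, whose transcripts are short, the correction moved the median the other way, from -0.03 to 0.48, and 2 of them rose, neither of which held.

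In the remaining lists the share called in both fits was 23.7% for lysosome genes, 23.1% for ATF4 genes, 19.2% for glycolysis and hypoxia and 18.4% for the cell cycle, against 10.5% of all tested genes. Of 38 lysosome genes 8 fell and 1 rose, and of 38 cell cycle genes 6 fell and 1 rose, with medians of -0.04 and -0.07 and no gene that held. With DMXAA 13 lysosome genes were higher and 2 lower, and 22 cell cycle genes were lower and none higher, where 6.14% of all tested genes were higher and 8.05% lower. The difference between the lines itself changed with DMXAA in 6 of the lysosome and 2 of the cell cycle genes, against 2.46% of all tested genes. Of 26 genes of glycolysis and hypoxia 4 fell and 1 rose, the latter being Hk1, hexokinase, which held (0.38 ± 0.07). Of 26 ATF4 genes 6 fell, of 20 genes of the unfolded protein response 3 fell (15%) and of 20 NRF2 genes 3 fell (15%). No gene rose and none held in any of these lists. Of 28 genes of Toll-like receptors and inflammasomes 2 rose and 3 fell (17.9% called in both fits) without a held gene. Tlr3, the receptor for double-stranded RNA, went from 7.50, 7.61 and 6.26 CPM to 1.8, 2.07 and 1.99 CPM (-2.03 ± 0.52). Of 19 phagocytic and scavenger receptors 2 rose and 2 fell (21.1% called in both fits). The rises, Cd33 and the Fc receptor Fcgr3 (1.18 ± 0.20), both held, and Siglec1, an interferon-induced sialic acid receptor, fell (-3.02 ± 0.65) but did not hold.

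**Figure D3:**
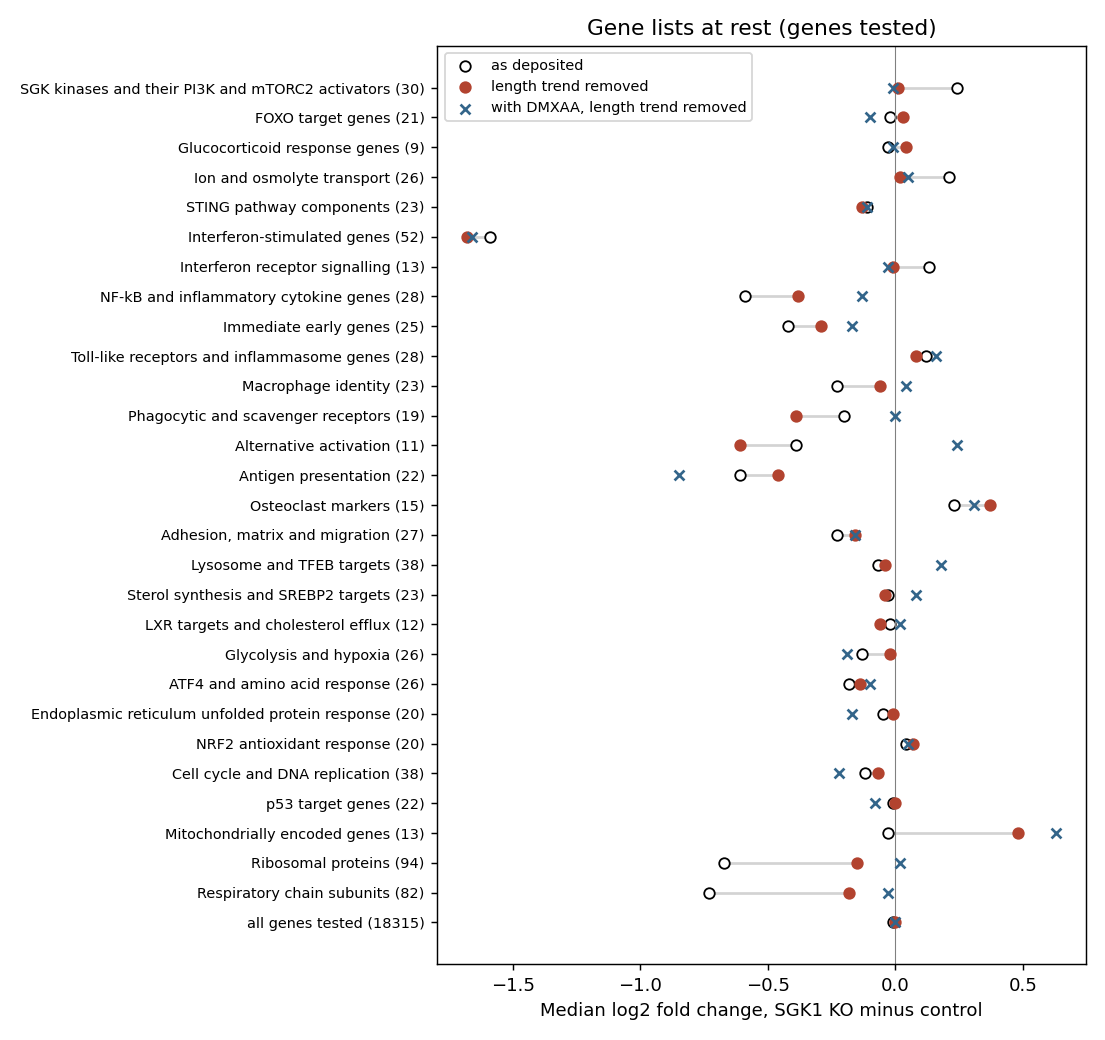
Median log2 fold change of SGK1 KO minus control (x axis) for each gene list (y axis, number of genes tested in brackets) at rest as deposited (open circles) and with the length trend removed (red), and with DMXAA (blue crosses). Interferon-stimulated genes stand at -1.59, -1.68 and -1.66, while ribosomal proteins move from -0.67 to -0.15.

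Apart from these lists, 26 genes were silent in one line and expressed in the other, taken as no more than 12 counts in each library of one group and at least 1 CPM in each library of the other. In the SGK1 KO cells 14 of them were off (12 protein coding) and 12 on (10 protein coding), and all were called in both fits. With DMXAA 7 and 6 of them met the same rule. Plod2, a collagen lysyl hydroxylase (chr9:92424276-92490481), had 7.57, 8.68 and 7.85 CPM in the controls and no count in any of the 3 knockout libraries, which makes it at least 52.2-fold lower against a floor of 12 counts per library. With DMXAA it was again without a count in the 4 knockout libraries. Adgrl2, an adhesion receptor of the latrophilin family, had 7.08, 4.92 and 6.78 CPM against no count (at least 40.7-fold lower), and Chst7, a sulfotransferase, 3.46, 2.84 and 3.82 CPM against no count (at least 21.9-fold lower). Apol9a was at least 16.9-fold lower, though it may share reads with its close copy Apol9b. Cytip had 8.09, 10.1 and 8.34 CPM in the controls and 0, 0.0877 and 0 CPM in the knockout libraries (adjusted p = 1.36e-08 by edgeR).

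The largest falls by the rule for named genes also held Bicd1, a dynein adaptor (2.66, 2.69 and 3.02 CPM against 0.0561, 0 and 0 CPM), Ddx60 (7.05, 6.77 and 6.19 CPM against 0.351, 0 and 0 CPM) and Arl4c, a small GTPase (3.43, 4.48 and 5 CPM against 0, 0 and 0.298 CPM). Nsd1, a methyltransferase of histone H3 lysine 36, had 11.5, 10.4 and 15.8 CPM in the controls and 0.351, 0.564 and 0.262 CPM in the knockout libraries (-5.56 ± 0.70, adjusted p = 3.65e-07 by edgeR). Cyria, Hoxa7 and Mcoln2, with 1.54 to 3.14 CPM in the controls and at most 0.168 CPM in the knockout libraries, were called in both fits but did not hold. Gm28036 did not hold either and its controls were uneven, at 30.4, 7.25 and 46.5 CPM against 0, 0.927 and 1.3 CPM. With DMXAA its change was -0.71 ± 0.77 (adjusted p = 0.575 by edgeR). Of 27 adhesion, matrix and migration genes 4 fell and 1 rose (18.5% called in both fits, against 10.5% of all tested genes). Among them Sdc3, a heparan sulfate proteoglycan, fell from 37.5, 34.9 and 43.9 CPM to 1.88, 3.01 and 2.33 CPM (-4.22 ± 0.52). Spp1, osteopontin, fell from 2010, 2130 and 2060 CPM to 951, 966 and 830 CPM (-0.83 ± 0.17), and both held.

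Of the genes switched on, Zfp334, a zinc finger gene (chr2:165216184-165230179), had no count in the 3 control libraries and 4.27, 10.5 and 9.32 CPM in the SGK1 KO libraries, at least 46.4-fold higher. Espnl, an actin-binding protein, had no count against 2.08, 2.33 and 3.74 CPM (at least 15.7-fold higher). Maoa, the mitochondrial monoamine oxidase (chrX:16485937-16554057), had 0.173, 0 and 0 CPM in the controls and 25.3, 28.4 and 20.8 CPM in the knockout libraries (adjusted p = 1.15e-15 by edgeR). With DMXAA it had no count in the 4 controls and 32.7, 20, 31.2 and 28.7 CPM in the knockout libraries, at least 161-fold higher. Zfp991 had 0.072, 0.0301 and 0 CPM against 8.83, 10.1 and 10.7 CPM, and may share reads with other zinc finger genes of its cluster. Aldh1l1, Eid2 and Tns4 lay under 0.13 CPM in each control and between 1.28 and 3.55 CPM in the knockout libraries.

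Among the other large rises, Ptgs1, the constitutive cyclooxygenase (chr2:36120438-36142284), rose from 1.68, 1.52 and 1.56 CPM to 16, 13.5 and 19.2 CPM (3.42 ± 0.28, adjusted p = 4.55e-13 by edgeR). Agap2, a GTPase-activating protein that binds PI3K, rose from 1.25, 0.857 and 0.661 CPM to 16.2, 14.3 and 17.9 CPM (3.86 ± 0.36). Mn1, a transcriptional coregulator, rose from 0.0576, 0 and 0.593 CPM to 8.03, 11 and 8.23 CPM (5.10 ± 0.88). Tfec, a relative of TFEB, had 0.475, 0 and 0 CPM in the controls, too many counts in library A for the rule of silent genes, and 8.79, 6.05 and 7.99 CPM in the knockout libraries. Rnd3, a small GTPase (3.42 ± 0.38), and Galnt3, which starts O-glycosylation (3.35 ± 0.42), were also among the 14 largest rises. In the lists, held rises included Cd33, an inhibitory sialic acid receptor, from 25.9, 27.2 and 34.2 CPM to 62.3, 72.7 and 58.7 CPM (0.89 ± 0.10). Il4ra, the interleukin-4 receptor chain, rose from 2.42, 3.58 and 4.01 CPM to 9.14, 6.95 and 12.3 CPM (1.27 ± 0.25). Nfatc1, a factor of osteoclast formation (0.61 ± 0.08), also rose and held. Of the 28 genes with the largest changes 24 held, and 20 of the 24 were also called in the 6 libraries alone. The other 4 had adjusted p-values there, by edgeR with the length trend removed, of 0.0612 (Mn1), 0.083 (Tfec), 0.0776 (Ddx60) and 0.0685 (Arl4c).

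**Figure D4:**
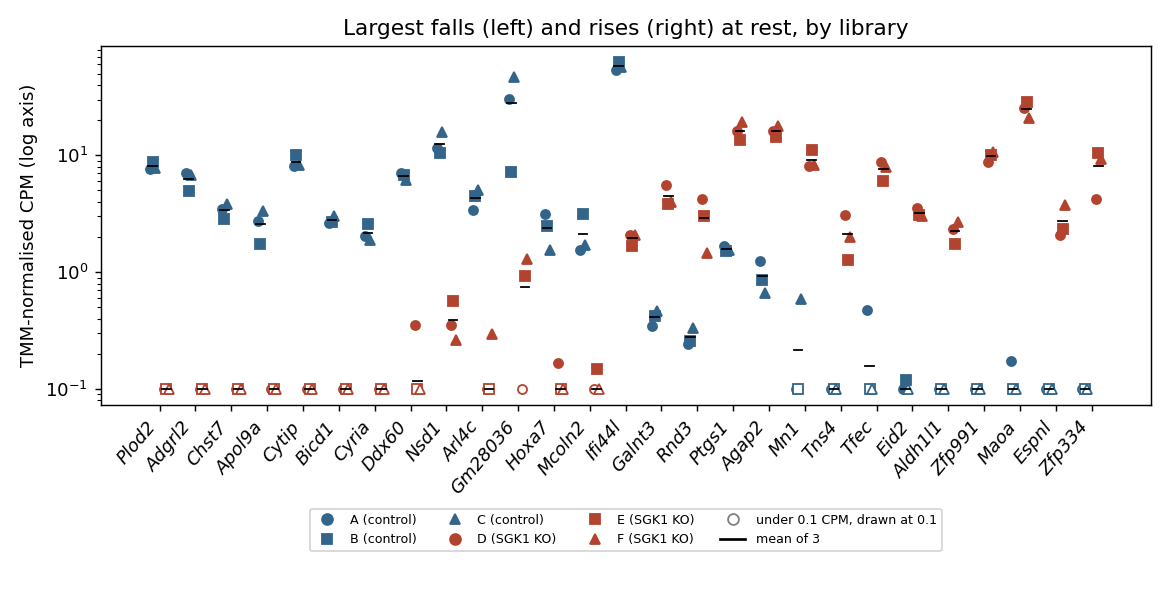
TMM-normalised CPM (y axis, log scale) of the 14 largest falls and 13 of the 14 largest rises (x axis) in each control (blue) and SGK1 KO (red) library at rest. Open symbols are libraries under 0.1 CPM, drawn at 0.1; Plod2 lies at 7.57 to 8.68 CPM in the controls and at 0 in all 3 knockout libraries, and Zfp334 is the reverse with 4.27 to 10.5 CPM in the knockout.

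The DMXAA libraries of the same lines share no library with the comparison at rest, but the 2 tests share the estimate of each gene's spread. They also had a length trend. Slopes were -0.12, -0.20, -0.02 and -0.18 in controls K to N and -0.10, 0.22, -0.01 and 0.13 in SGK1 KO libraries O to R. The highest slopes were thus in knockout libraries here too, and what part this had in the agreement was not tested. With DMXAA 2598 genes were called in both fits (14.2% of tested genes). Of the 1923 genes called at rest, 1601 had the same sign with DMXAA and 819 were called in the same direction, which is 42.6% of the calls at rest and 31.5% of those with DMXAA, and 19 were called in the opposite direction. Another 2809 genes were called at rest without the correction but are not among the 1923. They include the 23 called in both fits in opposite directions. Of the 2809, 417 (14.8%) were called with DMXAA in the direction seen at rest without the correction. Of the 231 held genes 207 (89.6%) were called with DMXAA in the same direction and 2, Sdcbp and Slc6a8, in the opposite direction. Library D, which has no slope, lay outside the 3 controls on the called side in 82.9% of the 1923 genes and in 59.8% of the 2809. Library D was itself among the knockout libraries that gave these calls, which favours that side in both sets. The shares are therefore no independent test of the calls, and they have no share over all tested genes beside them. Among interferon-stimulated genes 41 of 52 fell with DMXAA, 36 of them also at rest, with a median of -1.66.

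**Figure D5:**
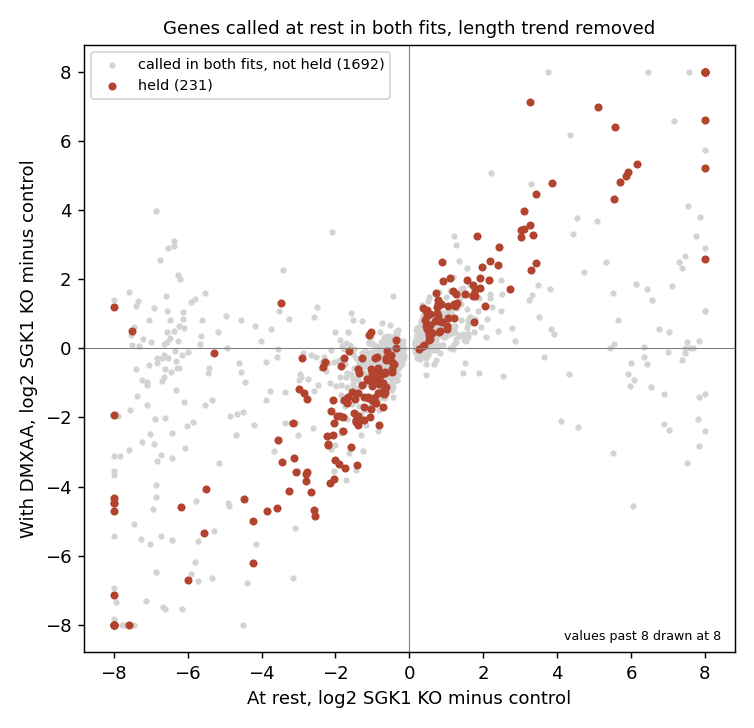
Log2 fold change of SGK1 KO minus control with DMXAA (y axis) against that at rest (x axis) for the 1923 genes called at rest in both fits, length trend removed, with the 231 held genes in red. Most held genes lie in the lower left and upper right, where both changes have the same sign; the largest fitted values belong to genes with almost no count in one group and are drawn at 8 where they pass it.

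The difference between the lines itself changed with DMXAA in 451 genes (2.46% of tested genes, contrast of contrasts called in both fits), 209 of them called at rest. Irf7 was one: it fell by 2.55 on the log2 scale at rest and by 4.85 with DMXAA (difference 2.30 ± 0.32, adjusted p = 1.95e-05 by edgeR). Usp18, Oas2, Oas3, Slfn5 and Trim30a also differed more with DMXAA. Ifit1, Ifih1, Rtp4, Cxcl10, Oasl1 and Oasl2 differed less. Ifit1 went from 5.52 ± 0.373 CPM in the control to 0.70 ± 0.628 CPM in the knockout at rest (SD, n = 3 and 3) and from 250 to 196 CPM with DMXAA (means, n = 4 and 4), a difference of differences of -2.62 ± 0.46 (adjusted p = 0.000544 by edgeR).

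Cells of a double knockout of SGK1 and SGK3 at rest, in the same batch, were compared with the same 3 control libraries, so the values are set side by side only. Ifi44 had a mean of 8.73 ± 1.73 CPM in the double knockout (SD, n = 3), 28.3 ± 3.37 in the SGK1 KO cells and 228 ± 3.88 in the control. Irf7 had 4.15 ± 0.417, 14.3 ± 3.86 and 84.1 ± 1.74 CPM in the same order. Maoa had 28.5 ± 1.09, 24.8 ± 3.79 and 0.0576 ± 0.0997 CPM, and Ptgs1 had 3.59 ± 0.41, 16.2 ± 2.89 and 1.59 ± 0.0866 CPM. Plod2 had no count in either knockout.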

How the data were processed

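The deposited values were made by the authors from RNA-seq reads with STAR 2.7.9a and StringTie 2.2.0 on GRCm39, per the submitters' processing notes; how reads were counted is not given in the sources used here. The deposited expected counts (estimated counts per gene, 55416 genes) were rounded to whole numbers. The authors' TPM values, from the second deposited table, were used in 1 alternative only. Gene positions and names are those of the count table. In edgeR 4.0.16 (R 4.3.3) the 46 libraries of batches b1 (26) and b2 (20) were filtered with filterByExpr, scaled by TMM and fitted with a coefficient for each group of each batch, so that all share 1 spread per gene. Batch b1 is the set with numbered library names. The 46 libraries also included SGK3 KO cells at rest and with DMXAA, double knockout cells at rest and with DMXAA, and control cells given an SGK inhibitor with DMXAA. The contrast was tested with the robust quasi-likelihood F test and Benjamini-Hochberg adjustment, at 0.05.

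To remove the length trend, the deviation of log2 CPM from the batch mean was fitted in each library with a natural spline of 5 degrees of freedom on log2 transcript length and used as an offset. Lengths are those of the longest GENCODE transcript on GRCm38 matched by gene ID (99.3% of tested genes). TMM normalisation keeps the median of all genes near 0, so changes are relative to it. One read pair was taken as 4 counts, the most frequent of the values from 1 to 16 in protein-coding genes (17.5%); the labels do not state this unit. The floor is 3 pairs, 12 counts per library, for counting error only. Where the lower group averaged below it, values are given without a fold.

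The members, gene lists and named genes were chosen with earlier results of these data known. Named were the SGK genes, the 14 largest falls and 14 largest rises among protein-coding genes called in both fits with no overlap between groups and a mean of at least 2 CPM in the higher group, and up to 4 called members of each list by size; further members named were chosen after their values were seen, and some genes that the rule names are not reported here. The scripts were tested on simulated data. DESeq2 1.42.0, limma 3.58.1, other scalings, filters, length measures and sets of libraries were tried as alternatives. The counts hold no information on strand, so antisense and overlapping genes cannot be told apart.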

Additional observations from a re-analysis of the deposited data

Results flagged for a closer look

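For some genes named here or in the interferon-stimulated list, 1 of the 4 DMXAA libraries of a group lay far from the other 3, which chance gives in about 1 of 20 groups. Among the SGK1 KO libraries these were Oas2 in P (8.03 CPM), Xaf1 in R (0.845 CPM), Hoxa7 in Q (0.189 CPM), Cd80 in Q (0.727 CPM), Zmat3 in O (28.7 CPM), Cyria in R (0.251 CPM), Src in O (0.627 CPM), Tnfsf10 in O (0.0418 CPM), Oas1g in O (20.6 CPM), Agap2 in R (27.5 CPM), Eif2ak2 in R (78.2 CPM), Mcoln2 in Q (0.359 CPM) and Ifi35 in P (11.5 CPM). Among the control libraries these were Ctsb in L (1610 CPM), Sgk1 in K (25.4 CPM), Mn1 in K (0.0939 CPM), Gbp2 in K (0.876 CPM), Aldh1l1 in M (0.17 CPM), Sdc3 in L (53.6 CPM) and Espnl in L (0.0607 CPM). Groups of 3, as at rest, were not examined in this way. In Hoxa7, Cyria, Src, Tnfsf10, Mcoln2, Mn1, Aldh1l1 and Espnl the other 3 libraries of the flagged group had no count. The rate of 1 in 20 need not apply to these genes.

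The log2 difference between SGK1 KO and control at rest minus that with DMXAA was called in both fits for a number of these genes. It was above 0 for Oas2 (1.96), Xaf1 (2.09), Trim30a (1.76), Lpl (0.68), Spp1 (1.38), Tap1 (0.67), Lgals3bp (0.92), Zmat3 (0.59), Usp18 (1.51), Itga6 (1.56), Irf7 (2.30), Oas3 (1.44), Mapkap1 (0.44), Hk1 (0.30), Oas1a (0.83), Irf9 (0.69), Eif2ak2 (0.64), Sp100 (0.74) and Slfn5 (1.74). It was below 0 for Ctsb (-0.73), Oasl2 (-1.79), Cd33 (-1.61), Cxcl10 (-1.48), Ifih1 (-1.33), Oasl1 (-0.65), Atf5 (-0.84), Ifit1 (-2.62), Nod2 (-1.25) and Rtp4 (-1). For Maoa (-5.46), Cytip (-3.75) and Mx1 (7.89) the fitted values rest on groups with almost no count and are not fold changes.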

How the results depend on the processing

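No paired analysis was possible because the 2 groups share no replicate numbers (A to C against D to F). Of the 4732 genes called with no correction, the 2779 called with the length trend removed and the 1923 called in both, fewer were called with the slope of each library as a covariate (724, 724 and 545), in the 6 libraries alone (248, 475 and 217), in the 20 libraries of b2 alone (1069, 826 and 580) and without libraries E and F (322, 371 and 294). With DESeq2 instead of edgeR they were 5392, 3494 and 2379, and limma on log2(TPM + 0.1) gave 5422, 4342 and 3028. In the last of these 2317 of the genes called in both were higher and 711 lower, against 692 and 1231; with DESeq2 size factors the split was 891 and 1111, and the cause of either shift was not tested. Leaving out single libraries gave 1869 (without F) to 6043 (without D), 1249 (without B) to 3721 (without D), and 921 (without B) to 2515 (without D); without F the 3 counts were 1869, 1289 and 969, and without B 1927, 1249 and 921. With DMXAA 3815 genes were called with no correction and 1463 without libraries P and R. The difference between rest and DMXAA was called for 519 genes with no correction and 807 with the length trend removed. Fewer libraries in a fit leave fewer degrees of freedom, which bears on the counts of the smaller fits.

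The fall of 42 interferon-stimulated genes was 41 or 42 in every fit of this list that used all 46 libraries or left out 1 library, except with the slope covariate (39). It was 33 in the 6 libraries alone, 38 in b2 alone and 35 without E and F, and the median lay between -1.69 and -1.29. No ribosomal protein gene was called lower with the slope covariate, in the 6 libraries alone or without E and F. Sgk1 lost its call with the slope covariate (-1.14), in the 6 libraries alone, in b2 alone, in limma on TPM and without A, B, D or E, and kept it without C, without F (-3.38) and without E and F (-3.07). The direction turned with the slope covariate for Rps20 (0.06), Rps19 (0.16), Akr1b3 (0.01), Tk1 (0.04), Sod2 (0.03), Bax (0.03) and Manf (0.01), and with limma on TPM for Pdia6 (0.02). Depth limits calls of genes under about 1 CPM, where a library holds few read pairs.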
